A study of Mus musculus with 18 samples.

Results

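Transcripts of 10 chaperone genes were followed in mouse melanoma cells whose endosomal sorting protein Hrs had been depleted. The genes were chosen by symbol as the main cytosolic Hsp70 and Hsp90 chaperones with their cofactors and the mitochondrial chaperonin pair, and they are 10 of the 23453 gene symbols measured. All 10 were present in the count table. They are Hspa1a, Hspa1b, Hspa8, Hsph1, Dnaja1, Dnajb1, Hsp90aa1, Hsp90ab1, Hspd1 and Hspe1. The title of the series names protein homeostasis, immune evasion and the interferon pathway as its subjects, and the chaperones bear on the first.

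B16F10 is a melanoma line from the C57BL/6 mouse strain. Its cells were infected with a lentivirus carrying a short hairpin RNA against Hgs, the gene of Hrs (shHrs), or a scrambled hairpin (shCTL), and the infected cells were kept by drug selection, so all groups share a lentiviral insertion and selection. RNA was sequenced from 2 separate batches of cultures, each with 2 shHrs and 2 shCTL libraries, and from tumours grown in female C57BL/6 mice of 6 to 8 weeks with intact immunity, with 5 shHrs and 5 shCTL libraries. The mice were wild type, and the labels name no allele or drug that differs between the groups. The labels do not say how many hairpins against Hgs were used. They do not state whether replicate cultures came from separate dishes. Culture p-values therefore reflect the spread among these particular libraries and nothing more, and part of it may be technical. A tumour library holds RNA of host cells as well as of melanoma cells.

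Hsp70 chaperones bind exposed hydrophobic stretches of unfolded proteins, in a cycle that is driven by ATP. J-domain proteins such as Dnaja1 and Dnajb1 bring clients and trigger ATP hydrolysis, and nucleotide exchange factors such as Hsph1 release the client again. Hsp90 acts later, on partly folded clients that include kinases and steroid receptors, and Hspd1 with its lid Hspe1 encloses proteins imported into mitochondria. Many of these genes are induced by the transcription factor Hsf1, which binds repeats of the 5-base unit nGAAn placed head to head or tail to tail, called heat shock elements. Such elements are shown here because they are a feature of the genes that was not used to choose them.

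RefSeq sequences upstream of transcription starts on GRCm38.p6 were found for 7 of the 10 genes. Hspa8, Hsp90aa1 and Hsp90ab1 had no entry. Each window of 300 bases, from 250 before to 50 after an annotated start, was searched for a pair of units, GAANNTTC or TTCNNGAA, which read the same on both strands. The 2 patterns can overlap, and a run of 3 units holds both. At least 1 window of 6 of the 7 genes held a pair, the exception being Dnajb1, against 15.1% of 32851 windows and 17% of 27025 genes in the whole table. A run of 3 units was held by Hspd1, Hspe1 and Hsph1, against 0.662% of all genes. Hspd1 and Hspe1 share the same run, and Hspa1a and Hspa1b are near copies, so these genes are not independent cases. A match is a run of letters and was not tested as a binding site. The stretches below run 5′ to 3′ along the strand named and lie outside the untranslated regions of GENCODE's basic transcripts, with the matching letters in capitals.

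The 250 bases before the starts of the stress-induced Hsp70 genes Hspa1a (chr17:34972157-34972406, minus strand) and Hspa1b (chr17:34959239-34959488, minus strand) are shown first, because the genes are near copies whose reads are hard to tell apart and whose levels differed.
Hspa1a: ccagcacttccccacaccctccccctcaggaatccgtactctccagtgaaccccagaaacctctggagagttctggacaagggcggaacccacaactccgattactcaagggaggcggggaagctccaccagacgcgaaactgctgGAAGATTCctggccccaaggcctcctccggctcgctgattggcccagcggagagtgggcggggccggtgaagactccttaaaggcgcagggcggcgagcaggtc
Hspa1b: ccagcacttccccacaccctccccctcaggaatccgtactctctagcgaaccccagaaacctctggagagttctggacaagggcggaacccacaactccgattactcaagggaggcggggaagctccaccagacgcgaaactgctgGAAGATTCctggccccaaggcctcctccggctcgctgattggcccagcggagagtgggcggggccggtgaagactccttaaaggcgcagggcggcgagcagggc
These stretches were 98.8% identical and differed at 3 of 250 bases, C44T, T47C and T249G, counted from 1 at the 5′ end with the Hspa1a base first. The pair of units begins 104 bases before the start in both genes.

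Hspe1 and Hspd1 lie head to head on chromosome 1, and the annotated genes overlap there. The stretch shown lies upstream of the start of Hspe1 and of the inner of 2 annotated starts of Hspd1, and inside the gene when Hspd1 is read from its outer start. It holds a run in which 3 pairs overlap.
Hspe1 and Hspd1 (chr1:55088025-55088131, plus strand): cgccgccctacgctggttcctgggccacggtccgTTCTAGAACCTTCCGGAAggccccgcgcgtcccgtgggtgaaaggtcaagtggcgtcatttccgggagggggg
The run begins 89 bases before the start of Hspe1. It lies within the window of the inner start of Hspd1 and outside that of the outer start.
The stretches of Dnaja1 and Hsph1 are given because both genes rose in the second culture batch, as described below.
Dnaja1 (chr4:40722304-40722391, plus strand): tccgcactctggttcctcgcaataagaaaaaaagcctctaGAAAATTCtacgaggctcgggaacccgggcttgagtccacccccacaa
Hsph1 (chr5:149636339-149636409, minus strand): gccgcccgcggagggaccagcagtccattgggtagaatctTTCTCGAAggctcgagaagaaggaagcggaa
In Dnaja1 the pair begins 124 bases before the first of 3 RefSeq starts. The whole GENCODE gene begins further upstream, at 40722150, so the stretch shown lies inside it. In Hsph1 the pair shown begins 33 bases before 1 RefSeq start and 54 bases before the other. The whole GENCODE gene reaches 149636376 at its 5′ end, so this pair lies inside it too. The run of 3 units in Hsph1 lies after both RefSeq starts and is not printed.

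The libraries held 17.6 to 27.7 M counts each (M, mega). Levels are given as CPM, the counts of a gene per M counts of its library after scaling over all 18 libraries. Hgs itself, which checks the labels, stood at 35.2 and 30.4 CPM in shHrs and at 95.0 and 113 CPM in shCTL cultures of batch 1, and at 44.6 and 41.3 CPM in shHrs and 97.8 and 107 CPM in shCTL cultures of batch 2. In tumours it ranged from 16.1 to 29.2 CPM with shHrs and from 95.8 to 112 CPM with shCTL. Every shHrs library lay below every shCTL library of its batch or kind. All 7 melanocyte markers were detected in all groups. Of the 4 leukocyte markers, only Cd53 was at 0 in every culture group. The leukocyte sum ranged from 0.392 to 4.24 CPM in cultures and from 9.37 to 179 CPM in tumours.

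Levels per kilobase (kb) use all annotated exons of a gene merged, 2999 bases for Hsp90ab1 and 4301 for Hspa8. By this measure Hsp90ab1 had the highest mean level of the 10 genes in all 6 groups. It stood at 919 CPM per kb in shHrs and 961 CPM per kb in shCTL cultures of batch 1. The values were 1672 and 582.1 in shHrs and shCTL cultures of batch 2, and 1204 and 1375 in shHrs and shCTL tumours. The longest coding transcripts are 2520 bases for Hsp90ab1 and 2394 for Hspa8. Mean CPM was higher for Hspa8 in shHrs cultures of batch 2 (5173 against 5014) and in shHrs tumours (3894 against 3611). In shCTL tumours the means lay close (3933 for Hspa8 against 4123 for Hsp90ab1), and division by these coding lengths reverses their order. The first place in both tumour groups and in shHrs cultures of batch 2 therefore depends on the length used. Hspa8, Hsp90aa1 and Hspd1 followed in places 2 to 4, in an order that changed between groups. Hspa8 and Hsp90aa1 overlapped between libraries in both batch 1 groups, in shCTL cultures of batch 2 and in shCTL tumours. Hspe1 was the fifth in each group. Dnaja1, Hsph1, Dnajb1 and Hspa1b came in places 6 to 9, and Hspa1a was the lowest, at most 1.001 CPM per kb as a group mean. Hspd1 overlapped its neighbour Hspa8 in shHrs cultures of batch 1, and Hsp90aa1 in shCTL cultures of batch 1, in shHrs cultures of batch 2 and in both tumour groups. Per length, the constitutive Hspa8 thus stood above the stress-induced Hsp70 genes in every group.

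**Figure D1:**
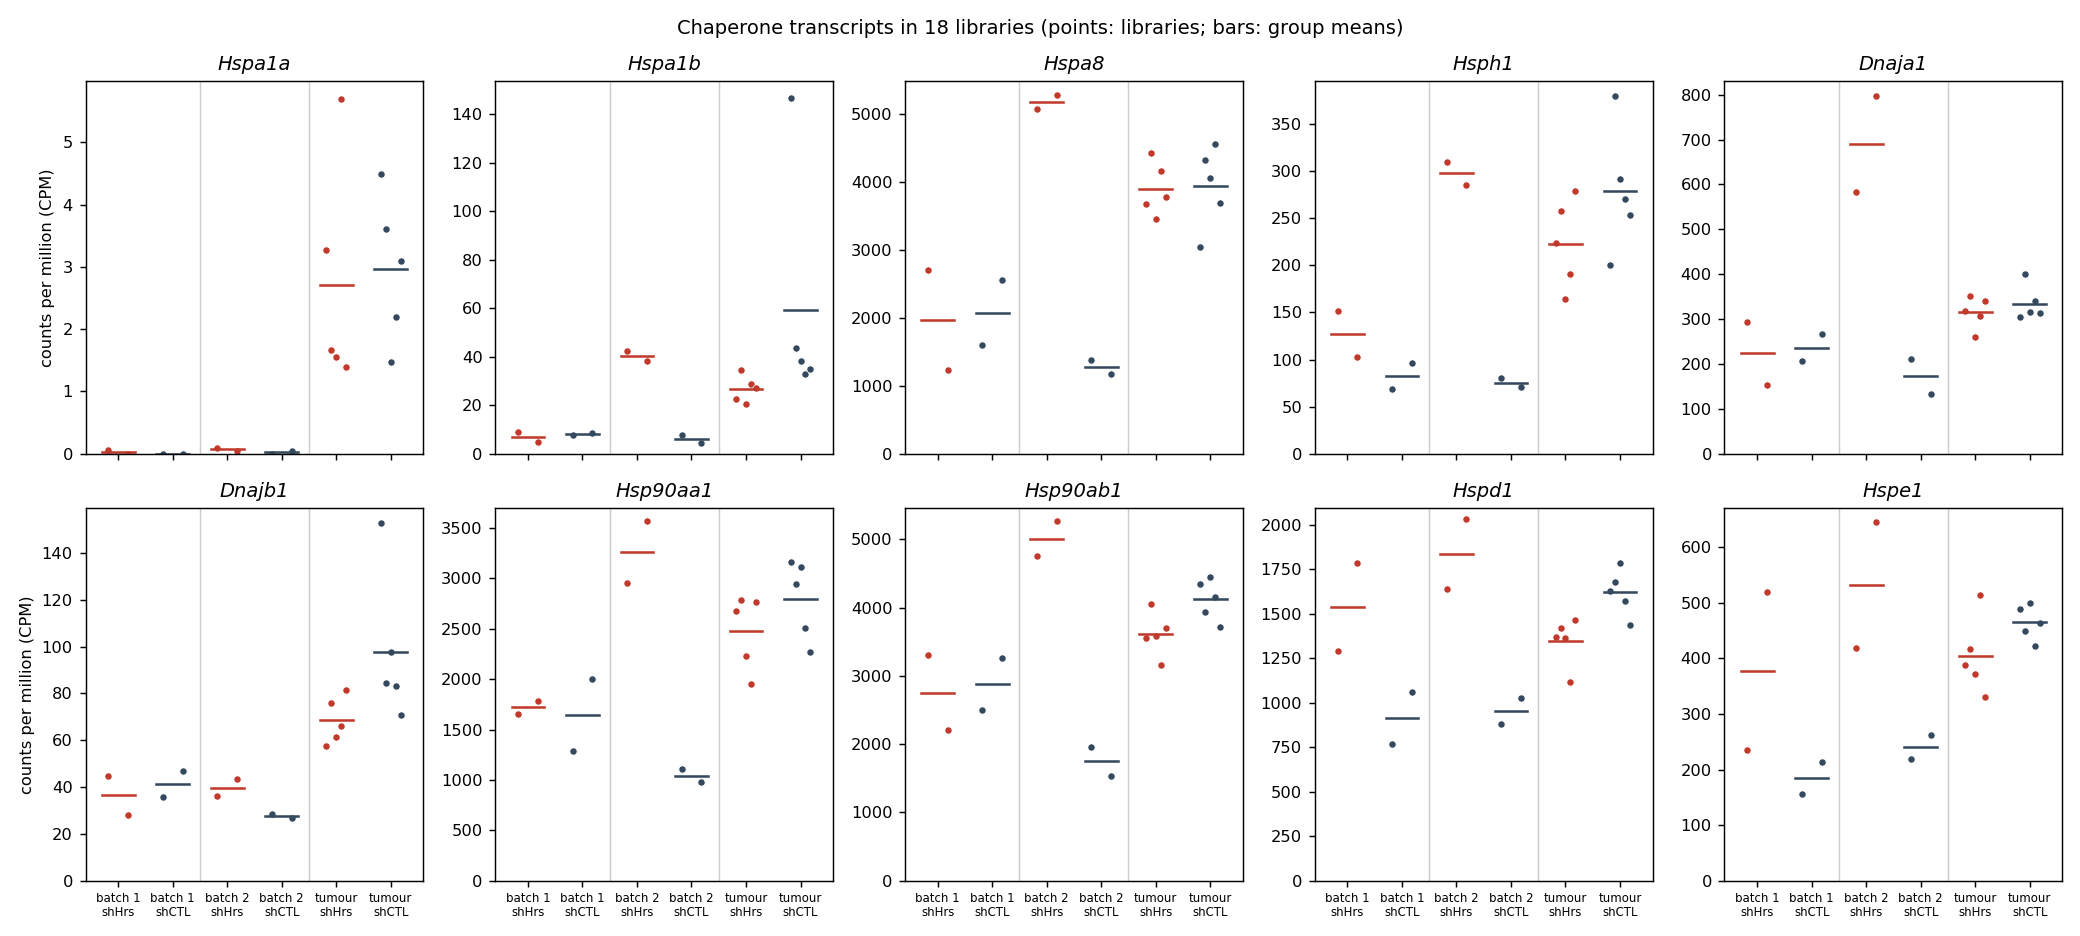
Level of each chaperone transcript in CPM (vertical axes, linear from 0) in the 18 libraries, with shHrs groups in red to the left of their shCTL groups in dark blue. Points are libraries and bars are group means; in batch 2 the shHrs points of 9 genes lie above the shCTL points, while in tumours the groups overlap for all 10 genes.

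In the cultures of batch 2, 6 of the 8 cytosolic chaperone genes rose with Hrs knockdown. Dnajb1 did not pass the test and Hspa1a was too low to be tested. Fold changes are given as log2 of shHrs over shCTL from edgeR's quasi-likelihood test on the counts, with Benjamini-Hochberg adjusted p-values (all genes of the fit together) and 0.05 as the threshold. Of the 10 genes, 9 had enough counts to be tested, and 6 rose past the threshold, against 1.6% of all genes tested. None fell, against 2.43% of all genes. All 9 tested genes were higher in both shHrs libraries than in both shCTL libraries, which was so for 35% of all genes. Their median log2 fold change was 1.60, against -0.05 over all genes tested. The 10 genes together took 1.61% and 1.74% of all counts in shHrs cultures, against 0.634% and 0.562% in shCTL cultures, a measure that does not depend on the scaling between libraries. The summed melanocyte markers differed in the same libraries, at 5220 and 4330 CPM in shHrs and 13800 and 11600 CPM in shCTL cultures. Of these 7 markers, 0 passed the threshold, while 5 had a negative log2 fold change, with a median of -1.36. At an unadjusted p below 0.05, 4 were lower and 0 higher, against 1918 and 1679 of all 12897 genes. A set of 13 immediate early genes, which handling of cells can raise, had sums of 365 and 417 CPM in shHrs and 256 and 360 CPM in shCTL cultures. The lower shHrs sum lay only just above the higher shCTL sum. Of the 11 tested, 1 rose, Fos (log2 fold change 2.75, adjusted p = 0.0268), named after its value was seen, and 0 fell. The fibroblast markers summed to 31.7 to 47.1 CPM in shHrs and 49.6 to 65.0 CPM in shCTL cultures. The leukocyte, macrophage, T and NK cell, endothelial, skeletal muscle and erythroid sums were each at most 10.7 CPM in these cultures. The part of these markers in the result was not tested.

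Among the Hsp70 chaperones, Hspa1b, the stress-induced Hsp70 (chr17:34956436-34959238, minus strand), had 42.5 and 38.2 CPM in shHrs cultures of batch 2, against 7.80 and 4.55 CPM in shCTL cultures. Its log2 fold change of 2.66 (SE 0.40, adjusted p = 0.0229) was the largest of the 9 tested. Hspa8 (chr9:40800984-40810087, plus strand), the constitutive Hsp70 also known as Hsc70, had 5070 and 5276 CPM in shHrs and 1370 and 1174 CPM in shCTL cultures, with a log2 fold change of 1.98 (SE 0.41, adjusted p = 0.0411). The abundant constitutive gene and the scarce induced gene therefore both rose. Hsph1 (chr5:149614287-149636376, minus strand), the Hsp110 exchange factor of Hsp70, had 309.9 and 286 CPM in shHrs and 79.9 and 70.8 CPM in shCTL cultures (log2 fold change 1.94, SE 0.29, adjusted p = 0.0229). Hspa1a (chr17:34969190-34972156, minus strand), the near copy of Hspa1b, had 2 and 1 counts in shHrs and 0 and 1 counts in shCTL cultures of batch 2. It had 1 and 0 counts in shHrs and 0 and 0 counts in shCTL cultures of batch 1. These values are at or under the 3 counts that a count of 0 allows, and Hspa1a was not tested in cultures.

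Of the J-domain proteins, Dnaja1 rose and Dnajb1 did not pass the threshold. Dnaja1 (chr4:40722150-40737149, plus strand), a partner of Hspa8, had 583 and 797 CPM in shHrs cultures of batch 2, against 212 and 134 CPM in shCTL cultures (log2 fold change 1.95, SE 0.39, adjusted p = 0.0384). Dnajb1 (chr8:83608193-83612653, plus strand), known as Hsp40 and itself a heat shock gene, had 36.2 and 43.3 CPM in shHrs and 28.3 and 26.6 CPM in shCTL cultures. Its log2 fold change of 0.48 (SE 0.29, adjusted p = 0.307) did not pass, although the groups did not overlap. The ratio of Dnajb1 to Dnaja1 CPM was 6.21% and 5.42% in shHrs cultures, below the 13.4% and 19.9% in shCTL cultures. With 2 libraries against 2, an exact permutation test of such a ratio cannot reach the threshold and none was made.

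Both cytosolic Hsp90 genes rose. Hsp90aa1 (chr12:110690605-110702728, minus strand), the inducible isoform alpha, had 2958 and 3570 CPM in shHrs cultures of batch 2 and 1108 and 976 CPM in shCTL cultures (log2 fold change 1.60, SE 0.28, adjusted p = 0.0282). Hsp90ab1 (chr17:45567775-45573271, minus strand), the constitutive isoform beta, had 4754 and 5274 CPM in shHrs and 1959 and 1533 CPM in shCTL cultures (log2 fold change 1.47, SE 0.30, adjusted p = 0.0394). The isoforms kept similar proportions, the ratio of Hsp90aa1 to Hsp90ab1 CPM being 62.2% and 67.7% in shHrs cultures and 56.6% and 63.7% in shCTL cultures, which overlap.

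The mitochondrial pair stood higher in shHrs cultures of batch 2 but did not pass the threshold in the main edgeR fit. Hspd1 (chr1:55077835-55088243, minus strand), the Hsp60 chaperonin, had 1642 and 2032 CPM in shHrs cultures and 880.3 and 1028 CPM in shCTL cultures (log2 fold change 0.90, SE 0.27, adjusted p = 0.0854). Hspe1 (chr1:55088132-55091307, plus strand), its Hsp10 lid, had 418 and 646 CPM in shHrs and 219 and 262 CPM in shCTL cultures (log2 fold change 1.10, SE 0.39, adjusted p = 0.115). The groups did not overlap in either gene. Both passed by DESeq2, by edgeR with no filter on low counts and in the fit of the 4 batch 2 libraries alone. Each of these called 8 chaperones, with 1988, 2224 and 4303 genes called in all, in that order. The split between cytosolic and mitochondrial genes thus depends on the fit.

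These calls did not hold without any 1 of the 4 libraries of batch 2. Without any of shHrs replicate 1, shHrs replicate 2, shCTL replicate 1 or shCTL replicate 2, edgeR called 0 of the chaperones, where the lone library is assumed to vary like the others. Over the whole table the calls also went to 0 in each of these 4 settings, against 520 with all libraries. The median log2 fold change of the 9 tested genes then stayed between 1.497 and 1.714.

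**Figure D2:**
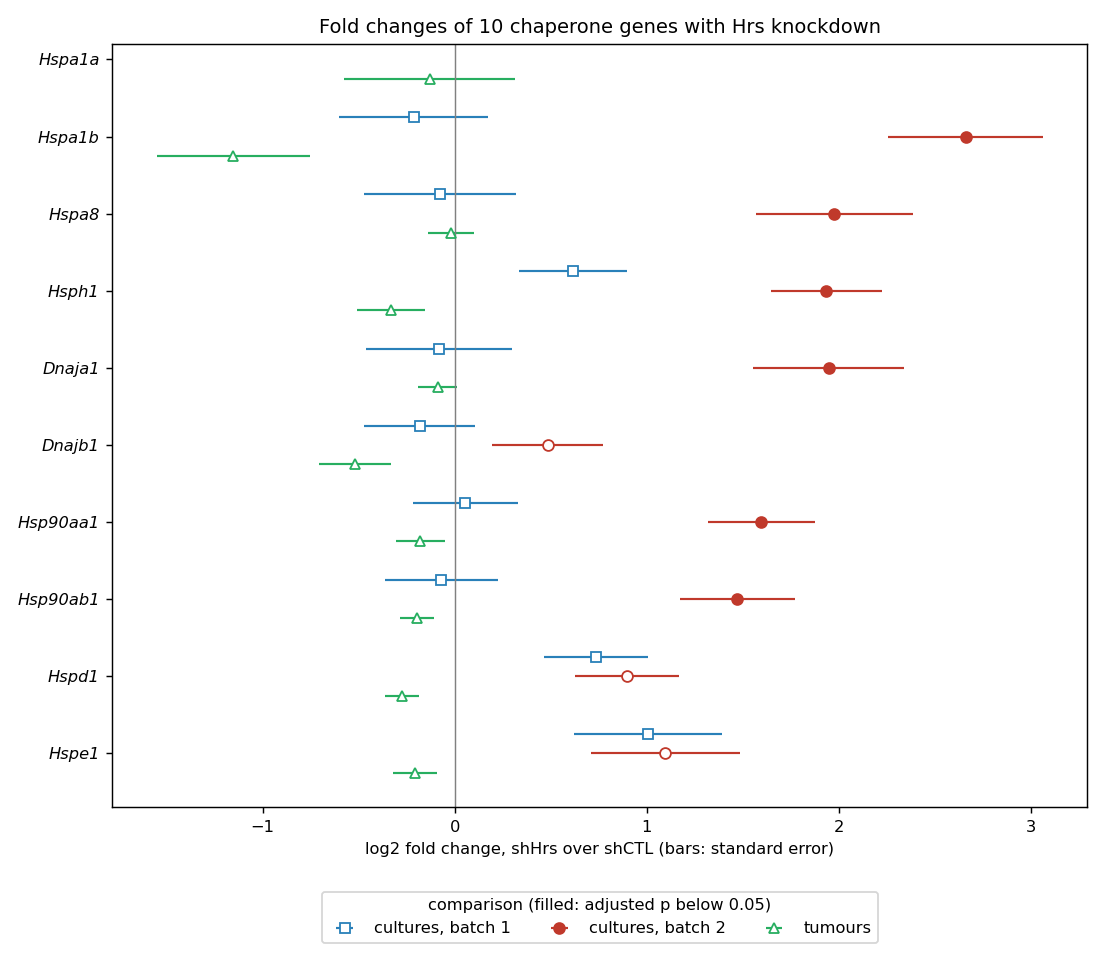
Log2 fold change, shHrs over shCTL (horizontal axis), of each chaperone gene in the cultures of batch 1 (blue squares), the cultures of batch 2 (red circles) and tumours (green triangles), with bars of 1 standard error and filled symbols where the adjusted p is below 0.05. The 6 filled symbols are all of batch 2, from 1.47 for Hsp90ab1 to 2.66 for Hspa1b; Hspa1a was tested in tumours only.

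In the cultures of batch 1, no chaperone passed the threshold, and neither did any other gene (0 of 12897, 0% called by edgeR). Even Hgs did not pass (log2 fold change -1.67, SE 0.225, adjusted p = 0.103 by edgeR), so a missing call there does not show that a gene was unchanged. At an unadjusted p below 0.05, 2 of the 9 tested genes were higher, Hspd1 and Hspe1, against 3.43% of all genes, and 0 were lower, against 5.95%. DESeq2 and limma voom called 0 of the chaperones as well. Hspd1 had 1290 and 1785 CPM in shHrs cultures and 770.1 and 1062 CPM in shCTL cultures (log2 fold change 0.73, SE 0.27, adjusted p = 0.501). Hspe1 had 236 and 519 CPM in shHrs and 157 and 214 CPM in shCTL cultures (log2 fold change 1.01, SE 0.39, adjusted p = 0.512). With Hsph1, at 152 and 103 CPM in shHrs and 69.2 and 96.6 CPM in shCTL cultures, these were the 3 of 9 genes whose groups did not overlap, against 15.3% of all genes in that direction. Without shHrs replicate 2 of batch 1 the log2 fold change of Hspe1 was 0.36 (adjusted p = 0.971).

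The other 6 genes overlapped between the groups of batch 1, with log2 fold changes from -0.21 to 0.06. Their shHrs libraries differed from each other. Hspa8 had 2694 and 1235 CPM in shHrs replicates 1 and 2, against 1596 and 2548 CPM in shCTL cultures. Dnaja1 had 294 and 154 CPM in shHrs, against 206 and 267 CPM in shCTL cultures. Hspa1b had 8.99 and 4.90 CPM in shHrs, against 7.69 and 8.38 CPM in shCTL cultures. In these 3 genes shHrs replicate 1 was the highest and shHrs replicate 2 the lowest library of the batch. The same order held for Hsp90ab1, with 3309 and 2202 CPM in shHrs and 2501 and 3265 CPM in shCTL cultures. Dnajb1 had 44.8 and 28.2 CPM in shHrs and 35.8 and 46.9 CPM in shCTL cultures. For Hsp90aa1, at 1657 and 1784 CPM in shHrs and 1284 and 2002 CPM in shCTL cultures, both shHrs libraries lay between the controls. In the mitochondrial pair shHrs replicate 2 was the highest library. The immediate early genes summed to 180 CPM in shHrs replicate 1 and 742 CPM in shHrs replicate 2, against 231 and 331 CPM in shCTL cultures, and their part in these levels was not tested. The melanocyte markers summed to 19200 and 8130 CPM in shHrs replicates 1 and 2, against 15200 and 9500 CPM in shCTL cultures, and this too was not tested. Without shHrs replicate 1, Hspe1 passed the threshold in batch 1 (log2 fold change 1.44, adjusted p = 0.0231), in a fit that called 1496 genes over the whole table, against 0 with all libraries.

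The effects of the 2 batches were compared directly by their difference, batch 2 minus batch 1. It was positive for all 9 tested genes, as for 48.1% of all genes, and edgeR called 0 of them, against 0.155% of all genes. At an unadjusted p below 0.05, 6 were higher in batch 2 (9.73% of all genes) and 0 lower (10.6% of all genes). Hspa1b came nearest, with a difference of 2.87 (SE 0.55, adjusted p = 0.0693), and Hsp90aa1 had 1.54 (SE 0.39, adjusted p = 0.103). For Hspd1 the difference was 0.16 (SE 0.38) and for Hspe1 0.09 (SE 0.54), both smaller than their standard errors. Limma voom called 0 of these differences, while DESeq2 called 6, and edgeR called 6 with no filter on low counts. Without shHrs replicate 1 of batch 1 edgeR called 6 of the chaperones and 1968 genes in all, and without shHrs replicate 2 of batch 1 it called 1, Hspa1b, and 635 genes in all, against 20 genes with all libraries.

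Over both batches, with batch as a term, edgeR called 0 of 9 chaperones and 0% of all genes. Hgs itself fell just outside the threshold (log2 fold change -1.49, SE 0.171, adjusted p = 0.0502). At an unadjusted p below 0.05, 4 were higher, against 5.73% of all genes, namely Hsph1 (log2 fold change 1.28, SE 0.31, adjusted p = 0.268), Hspd1 (0.82, SE 0.19, adjusted p = 0.268), Hspe1 (1.05, SE 0.27, adjusted p = 0.291) and Hsp90aa1 (0.83, SE 0.33, adjusted p = 0.351). Limma voom called 0. DESeq2 called 3, Hsph1, Hspd1 and Hspe1, which are the genes that were higher in both shHrs libraries of each batch. Without shHrs replicate 1 of batch 1 edgeR called 1 of the chaperones, Hspe1 (adjusted p = 0.0493), and 164 genes in all.

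In tumours no chaperone passed the threshold, against 0.545% of all genes, and the estimates lay on the other side of 0 from those of batch 2. The log2 fold change was negative for all 10 genes, against 48.5% of all genes tested, with a median of -0.20 against 0.01 over all genes. At an unadjusted p below 0.05, 4 genes were lower, against 7.17% of all genes, and 0 were higher, against 6.96%. All 10 overlapped between the groups, while 4.28% of all genes did not. In a tumour, a lower level in melanoma cells and a smaller share of melanoma cells cannot be told apart. The melanocyte markers summed to 20400 to 27500 CPM with shHrs and 20000 to 24900 CPM with shCTL, which overlap. No host cell marker passed the threshold. All 6 skeletal muscle markers were higher with shHrs (median log2 fold change 2.14, 2 at an unadjusted p below 0.05). All 3 tested erythroid markers were lower (median -3.47, 3 at that p). The 4 leukocyte, 8 macrophage and 5 tested T and NK cell markers were all higher, 0 at that p. Endothelial and fibroblast markers went both ways. The part of host cells in the chaperone estimates was not tested.

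The largest estimate in tumours was that of Hspa1b, with 22.6, 34.6, 20.7, 28.9 and 27.2 CPM in shHrs tumours and 146.7, 43.6, 38.1, 32.7 and 35.1 CPM in shCTL tumours. Only shHrs replicate 2 reached into the range of the controls. The log2 fold change was -1.15 (SE 0.40, adjusted p = 0.214), and without shCTL replicate 1 it was -0.48 (SE 0.15, adjusted p = 0.25). Dnajb1 followed, with 57.5, 76.1, 61.5, 66.0 and 81.6 CPM in shHrs tumours and 153, 84.3, 97.5, 83.2 and 70.9 CPM in shCTL tumours (log2 fold change -0.52, SE 0.19, adjusted p = 0.241), and without shCTL replicate 1 the value was -0.29. That tumour was the highest of all 10 in both genes. It also had the highest immediate early sum, 975 CPM, against 323 to 514 CPM in shHrs tumours and 316 to 465 CPM in the other shCTL tumours. Whether handling of the tissue bears on the chaperone levels was not tested. Hspa1a had 3.28, 1.67, 1.55, 5.70 and 1.39 CPM in shHrs tumours and 4.49, 3.61, 1.46, 2.19 and 3.10 CPM in shCTL tumours, so that it was detected in each tumour, and the groups overlapped throughout (log2 fold change -0.13, SE 0.44).

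Hspd1 had 1368, 1418, 1363, 1117 and 1463 CPM in shHrs tumours and 1630, 1680, 1786, 1573 and 1436 CPM in shCTL tumours. The groups overlapped through 2 libraries, shHrs replicate 5 and shCTL replicate 5. The log2 fold change was -0.27 (SE 0.09, adjusted p = 0.19 by edgeR), and Hspd1 was the 1 chaperone that DESeq2 called in tumours (adjusted p = 0.0397), while limma voom called 0. Hspe1 had 388, 417, 372, 514 and 330 CPM in shHrs and 489, 449, 499.9, 423 and 463 CPM in shCTL tumours (log2 fold change -0.21, SE 0.12, adjusted p = 0.476). The shHrs tumour that was lowest in Hspd1, replicate 4, was the highest in Hspe1.

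Hsp90ab1 had 3552, 4060, 3589, 3158 and 3698 CPM in shHrs and 4351, 3943, 4456, 4150 and 3717 CPM in shCTL tumours (log2 fold change -0.20, SE 0.09, adjusted p = 0.337). The values of Hsp90aa1 were 2673, 2791, 2232, 1949 and 2771 CPM in shHrs and 3164, 2943, 3111, 2508 and 2269 CPM in shCTL tumours (-0.18, SE 0.13). The groups overlapped less in Hsp90ab1, where only shHrs replicate 2 reached into the range of the controls. In Hsp90aa1, shHrs replicates 1, 2 and 5 did. Hsph1 ranged from 164 to 279 CPM with shHrs and from 200.4 to 380.4 CPM with shCTL (-0.33, SE 0.18), and Dnaja1 from 260.5 to 351 CPM with shHrs and from 304 to 400.0 CPM with shCTL (-0.09, SE 0.10). Hspa8 ranged from 3451 to 4422 CPM with shHrs and from 3037 to 4559 CPM with shCTL, with a log2 fold change of -0.02 (SE 0.12). Its groups overlapped in full, with the lowest and the highest library both among the controls.

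The effect in tumours was set against the mean effect in the 2 culture batches in 1 fit of all 18 libraries. In that fit cultures and tumours share the same estimate of spread for a gene, although their spread can differ. Of the 10 genes, 7 passed the threshold as lower, against 1.49% of all genes. Differences were largest for Hspa1b (-2.40, SE 0.56, adjusted p = 0.0282) and Hsph1 (-1.63, SE 0.27, adjusted p = 0.00615), followed by Hspe1 (-1.29, adjusted p = 0.0226), Hspd1 (-1.12, adjusted p = 0.00644), Dnaja1 (-1.04, adjusted p = 0.0398), Hsp90aa1 (-1.03, adjusted p = 0.0184) and Hsp90ab1 (-0.92, adjusted p = 0.0161). Hspa8 fell just outside the threshold (-0.99, SE 0.28, adjusted p = 0.0573), and Dnajb1 did not pass either (-0.69, SE 0.29, adjusted p = 0.175). Hspa1a passed the count filter through the tumours, and its culture counts of 0 to 2 give no fold change that can be read.
The result leaned on batch 2. In comparisons added after the data had been seen, edgeR called 8 of the 10 differences against the batch 2 effect alone, and against the batch 1 effect alone it called 1, Hspd1 (-1.02, adjusted p = 0.0485). The count was 2 without shHrs replicate 2 of batch 2, 3 without shCTL replicate 2 of batch 2 and 4 without shCTL replicate 1 of batch 1, where 125, 217 and 271 genes were called in all, against 522 with all libraries. Cultures and tumours also differ in the way the cells grew and in host cells, so their levels were not tested against each other.

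Ratios between paired chaperones within a library do not depend on library scaling. The ratio of stress-induced to constitutive Hsp70, Hspa1a plus Hspa1b over Hspa8, was 0.840% and 0.725% in shHrs cultures of batch 2, above the 0.569% and 0.391% in shCTL cultures, and in batch 1 it was 0.336% and 0.397% in shHrs and 0.482% and 0.329% in shCTL cultures. In tumours it ranged from 0.644% to 0.832% with shHrs and from 0.765% to 4.98% with shCTL, the highest value again being that of shCTL replicate 1. Stress-induced Hsp70 transcripts thus remained a small part of cytosolic Hsp70 transcripts in all 18 libraries. The ratio of Hspe1 to Hspd1 was 18.3% and 29.1% in shHrs and 20.4% and 20.1% in shCTL cultures of batch 1, 25.5% and 31.8% in shHrs and 24.8% and 25.5% in shCTL cultures of batch 2, and 22.5% to 46.0% in shHrs and 26.7% to 32.3% in shCTL tumours. The shCTL libraries of a batch lay close together in it, and the shHrs libraries were spread more widely. The highest value of all was that of tumour shHrs replicate 4.

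**Figure D3:**
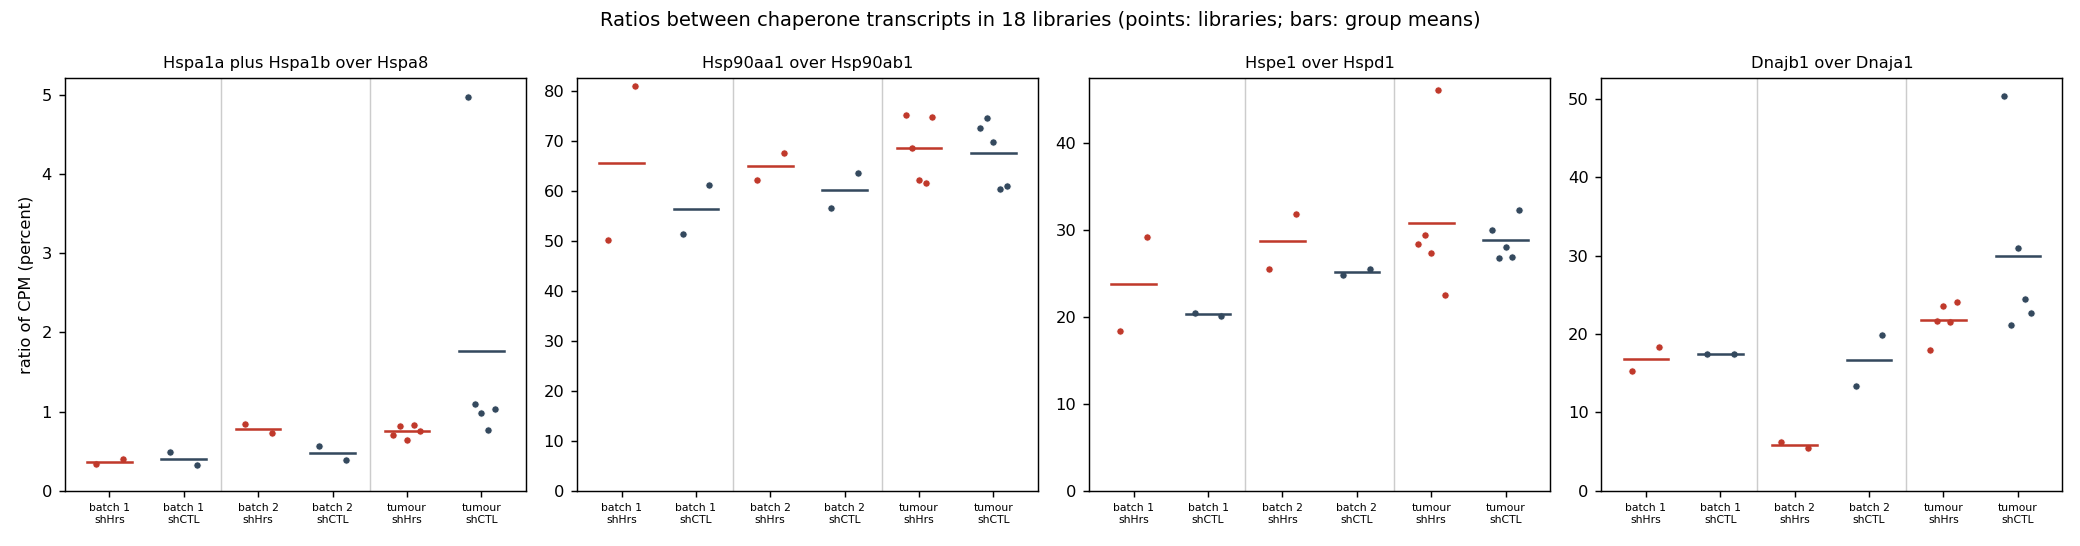
Ratios of CPM between paired chaperones, in percent (vertical axes from 0), in the 18 libraries, with shHrs groups in red to the left of their shCTL groups in dark blue; points are libraries and bars group means. Dnajb1 over Dnaja1 was 6.21% and 5.42% in shHrs cultures of batch 2, against 13.4% and 19.9% in shCTL cultures, and 1 shCTL tumour stood at 4.98% in the Hsp70 ratio.

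Of the genes that act with these chaperones, 3 passed the threshold in batch 2. Among 22 tested members of the Hsp70 family and its partners, 1 rose and 0 fell, against the 1.6% and 2.43% of all genes given above, with a median log2 fold change of 0.40. The gene was Bag2, a co-chaperone that acts on nucleotide exchange of Hsp70, with 84.1 and 90.3 CPM in shHrs and 33.9 and 37.7 CPM in shCTL cultures (log2 fold change 1.24, adjusted p = 0.046). Among 17 Hsp90 co-chaperones, with a median of 0.50, 1 rose and 1 fell. Ahsa1, which stimulates the ATPase of Hsp90, had 329 and 447 CPM in shHrs and 157 and 129.7 CPM in shCTL cultures (log2 fold change 1.39, adjusted p = 0.0417). Fkbp5, an immunophilin of the steroid receptor complexes and a glucocorticoid target, had 47.5 and 44.1 CPM in shHrs and 87.9 and 99.0 CPM in shCTL cultures (log2 fold change -1.08, adjusted p = 0.0372). Stip1, which links Hsp70 to Hsp90, had a log2 fold change of 0.67 (SE 0.25, adjusted p = 0.129).
None of the 14 genes of the TRiC chaperonin and prefoldin passed (median 0.55, with 13 positive, against 47.3% of all genes), nor did any of 12 genes of mitochondrial protein folding other than Hspd1 and Hspe1 (median -0.18, with 8 negative, against 52.7% of all genes) or of 4 genes made up of Hsf1, Hsf2, Hsf4 and the Hsf1-binding protein Hsbp1 (median -0.21). At an unadjusted p below 0.05, 7 of the TRiC and prefoldin genes were higher, against 13% of all genes. These counts depend on the fit. Over all alternatives they ran from 0 to 7 for the Hsp70 list, 0 to 7 for the Hsp90 list, 0 to 6 for TRiC and prefoldin and 0 to 3 for mitochondrial folding, the highest count of each being reached when the 4 batch 2 libraries were fitted by themselves, which called 4303 genes in all. Hsf1 itself had 86.9 to 91.9 CPM in shHrs and 78.4 to 104.8 CPM in shCTL cultures of batch 2, with a log2 fold change of -0.08 (SE 0.24). Its transcript level says nothing of its activity, which is set after translation.
In tumours edgeR called 0 genes of these 5 lists, with medians from -0.07 to 0.12, and DESeq2 called 1 of the Hsp90 co-chaperones, as higher. Hsf1 had a log2 fold change of 0.02 (SE 0.10) there and Stip1 of -0.04 (SE 0.09).

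**Figure D4:**
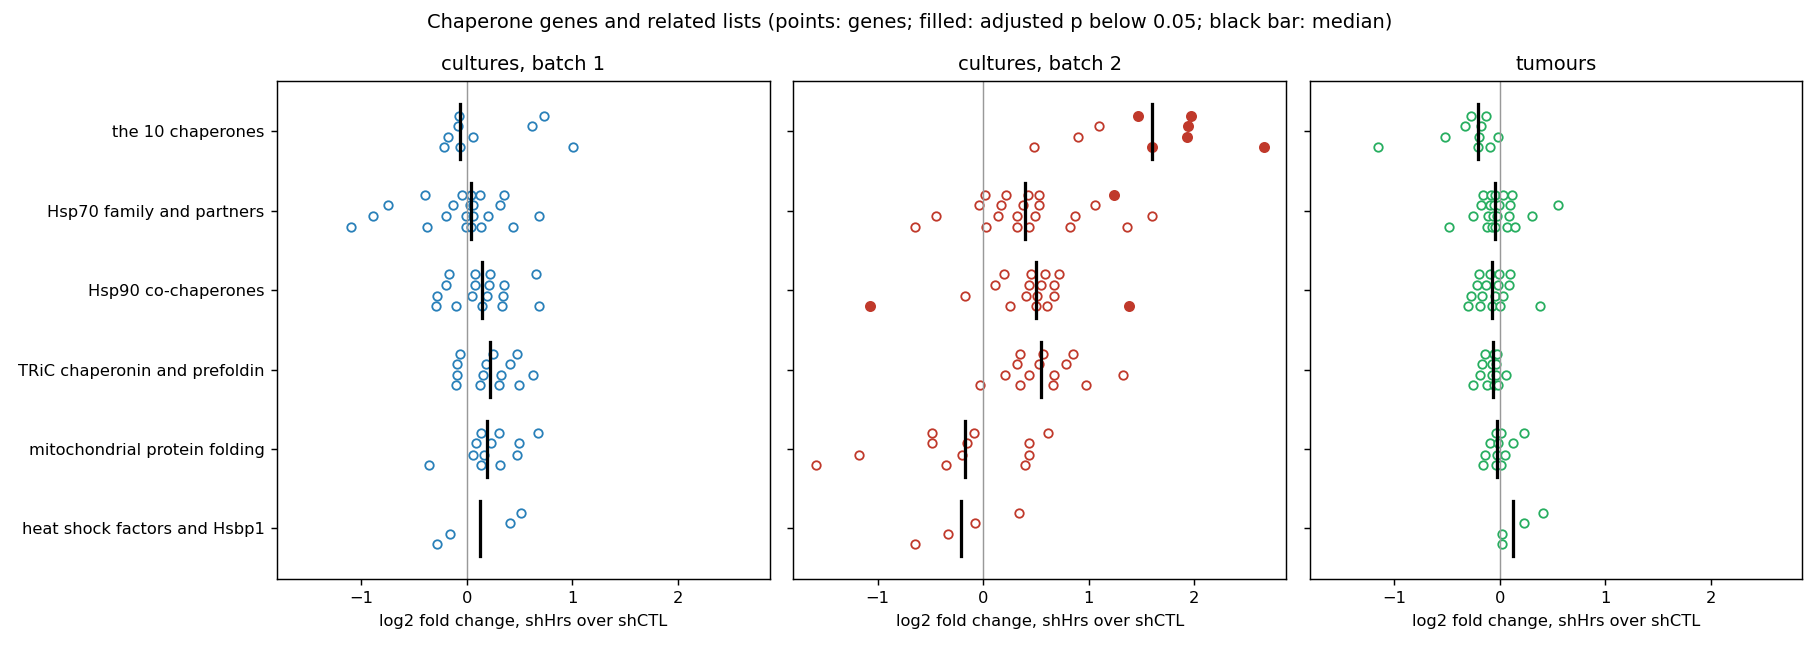
Log2 fold change, shHrs over shCTL (horizontal axes), of the 10 chaperone genes and of 5 lists of related genes in the cultures of batch 1 (left), the cultures of batch 2 (middle) and tumours (right). Points are genes, filled where the adjusted p is below 0.05, and black bars are medians; in batch 2 the chaperones' median of 1.60 lies right of the related lists' medians, which run from -0.21 to 0.55.

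To describe which transcripts followed the same pattern, the 11493 genes tested in both cultures and tumours were ranked by the mean absolute difference of their log2 CPM from that of a chaperone over 18 libraries, after centring within cultures and within tumours. The gene nearest to Hspa1b was another of the 10, Dnaja1, at 0.38 log2 units. Outside the 10 genes, the nearest were Zfp771 (0.43), Tctn2 (0.44), Mcrs1, Col10a1 and Gsr (0.45 each). Hsph1, Hspa8, Hsp90aa1 and Hsp90ab1 ranked between 14 and 32, while Dnajb1, Hspe1 and Hspd1 ranked from 220 to 295. The nearest to Hspd1 were Uspl1 and Npm1 (0.09 each), Ddx18, Ruvbl1 and Ddx21 (0.10 each). Hspe1, its head-to-head neighbour, came at rank 570 (0.19). Hsp90aa1 and Hsp90ab1 ranked 891 and 925, and Hsph1, Dnajb1, Dnaja1, Hspa8 and Hspa1b from 3929 to 9722. A rank depends on the gene it is counted from. Hspa1b and Hspd1 lay 0.56 apart, which was rank 295 from Hspa1b and 9722 from Hspd1. These distances are a description of 18 libraries that share batches and depth.

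The assignment of reads limits some of these levels. In windows of 125 bases along their longest GENCODE transcripts, 50.9% of Hspa1a windows and 44.8% of Hspa1b windows had an identical copy in another annotated gene, mostly each other, so the split between them is uncertain. The share was 59.1% for Hspa8, 41.3% for Hsp90aa1, 22.1% for Hspd1, 21.8% for Dnaja1 and 17.4% for Hspe1, mostly with predicted genes or pseudogenes, and 0 for Hsph1, Hsp90ab1 and Dnajb1. How reads with several matches were counted is not given in the sources used here. With the counts of Hspa1a and Hspa1b added together, edgeR called the same number of chaperones in each comparison.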

How the data were processed

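RNA of 8 cultures and 10 tumours was sequenced. The authors deposited 1 table of raw read counts, whole and not normalized, with a gene symbol per line, and all its columns were used. Per the submitters' processing notes, mm10, STAR 2.4.0h2 and DESeq were used. Which program counted the reads, on which annotation and with which strand setting, is not given in the sources used here. Overlapping and antisense genes are therefore uncertain. Libraries of a group differed by more than sampling noise (chi-square per degree of freedom 13.8 to 209), so each was kept.

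Counts were tested in R 4.3.3 with edgeR 4.0.16 (filterByExpr with a minimum count of 10, TMM, quasi-likelihood F test, two-sided). The 8 cultures were fitted with a mean per batch and treatment, or with batch as a term, the 10 tumours with treatment, and all 18 libraries with a mean per group. Genes tested numbered 12897, 12617 and 13215 in the first 3 fits. DESeq2 1.42.0, limma 3.58.1 (voom), RLE size factors, no filter, summed Hspa1a and Hspa1b, single-batch fits, a replicate block and leaving out each library were alternatives. A standard error is the fold change on the log2 scale divided by the square root of F. Log2 CPM for ranking carry a prior count of 2. Exon lengths and positions come from GENCODE M21 for GRCm38 (mm10). Every fit was also tested on simulated counts.

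The chaperones and the related lists, and the tests, were chosen with earlier results of these data known. Text names Hgs, all 10 chaperones, Hsf1, Stip1 and the 5 nearest genes to Hspa1b and Hspd1. It also names up to 3 called genes per related list in batch 2 or tumours. Markers are given as sums, counts and median fold changes. Some symbols matched through an older one, and 1 erythroid marker, Hbb-bt, had no match. Depth sets the precision of each value.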

Additional observations from a re-analysis of the deposited data

Results flagged for a closer look

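Among 22 groups of 5 tumours, 1 for each chaperone and for Hgs under each hairpin, 2 held a library far from the others by Dixon's criterion, and chance alone gives about 1 in 20. Hspa1b stood at 146.7 CPM in tumour shCTL replicate 1, where the other shCTL tumours had 32.7 to 43.6 CPM. The same tumour had the highest erythroid sum, 1840 CPM, against 27.7 to 146 CPM in shHrs tumours and 57.4 to 1510 CPM in the other shCTL tumours. Hspd1 stood at 1117 CPM in tumour shHrs replicate 4, where the other shHrs tumours had 1363 to 1463 CPM. That tumour had the highest skeletal muscle and leukocyte sums of the 10, 751 and 179 CPM, against 18.1 to 299 and 34.7 to 55.3 CPM in the other shHrs tumours and 5.1 to 191 and 9.37 to 93.8 CPM in shCTL tumours. Their part in the Hspd1 and Hspe1 levels was not tested.

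The effect of the hairpin in tumours differed from the mean effect of the 2 culture batches in 7 chaperones, by the test of the difference itself. The log2 differences were -2.40 for Hspa1b, -1.63 for Hsph1, -1.29 for Hspe1, -1.12 for Hspd1, -1.04 for Dnaja1, -1.03 for Hsp90aa1 and -0.92 for Hsp90ab1. That mean joins unlike effects, such as -0.21 in batch 1 and 2.66 in batch 2 for Hspa1b. The test uses the spread between libraries of a group, not between batches. Against the batch 1 effect alone, 1 chaperone was called. Hgs itself differed by -0.82 (SE 0.21, adjusted p = 0.0407), its fold change being more negative in tumours.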

How the results depend on the processing

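Chaperones called by edgeR were 0 in batch 1, 6 in batch 2, 0 for the difference between batches, 0 over both batches, 0 in tumours and 7 for tumour minus culture. Leaving out each library in turn gave 0 to 1, 0 to 8, 0 to 6, 0 to 1, 0 to 0 and 2 to 8, in that order. Replicate numbers were not used as pairs in the main fits. Correlations of same-numbered libraries were -0.56 to 0.30 in tumours, where not every library matched its own number best. They were 0.17 in batch 1 and 0.02 in batch 2, where each library matched its own number best. With 2 libraries per group the deviations mirror each other, so this check cannot settle whether cultures were paired. A replicate block gave 3 calls in batch 2 and 4 for tumour minus culture. It changed no other count of chaperones. DESeq2 gave 6 for the difference between batches, 3 over both batches and 1 in tumours, and no filter gave 6 for the difference between batches. In batch 2, DESeq2, no filter and the fit of its 4 libraries alone each gave 8. Against the batch 1 effect alone, tumour minus culture gave 1, and Hspa8 turned to 0.063, against -0.99.

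Of values with a sign that turned when a library was left out, those of batch 1 ranged from -0.76 to 0.18 for Hspa1b, -0.79 to 0.40 for Hspa8, -0.24 to 0.42 for Hsp90aa1, -0.43 to 0.22 for Hsp90ab1, -0.67 to 0.33 for Dnaja1, -0.60 to 0.14 for Dnajb1, -0.10 to 0.45 for Ahsa1 and -0.09 to 0.26 for Stip1. In batch 2 Hsf1 ranged from -0.27 to 0.13. For the difference between batches Hspd1 ranged from -0.10 to 0.39 and Hspe1 from -0.31 to 0.73. In tumours Hspa1a ranged from -0.60 to 0.076, Hspa8 from -0.089 to 0.049 and Hsf1 from -0.056 to 0.076. No called value reversed this way, and the cause of the changes was not tested.

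Genes called over the whole table, which set the background shares, moved with the tool and with single libraries. Leaving out each library gave 0 to 1496 in batch 1, 0 to 2732 in batch 2, 0 to 1968 for the difference between batches, 0 to 164 over both batches, 32 to 158 in tumours and 125 to 2194 for tumour minus culture. In batch 1 they were 0, against 438 with no filter, 220 by DESeq2 and 1 with the block. In batch 2 they were 520, against 2224, 1988 by DESeq2 and 4303 in a fit of its 4 libraries. For the difference between batches they were 20, against 1311 with no filter, 980 by DESeq2 and 13 by voom; over both batches 0, against 74, 301 by DESeq2 and 5 by voom. In tumours they were 72, against 549 by DESeq2 and 2 with the block, and for tumour minus culture 522, against 1410 by DESeq2, 154 against batch 1 and 2191 against batch 2.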
